A study of Mus musculus with 4 samples.

Results

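Guidance genes of the semaphorin, ephrin, Slit and netrin systems were compared by RNA sequencing between wild-type pancreatic duct libraries and duct libraries labelled Lats1/2 KO. The genes were chosen by symbol, as every gene model named for a semaphorin of classes 3 to 7, a plexin, a neuropilin, an ephrin, an Eph receptor, a Slit, a Robo, a netrin or an Unc5 receptor. The rule uses symbols alone, though the families were chosen with earlier results of these data known, and it found 67 of the 52535 gene models. Of the 67, 55 had enough counts to be tested, and 21 of these rose and 13 fell in the knockout-labelled libraries, 38.2% and 23.6% against 22.0% and 20.2% of all genes tested. Sema3e, Sema3c, Plxna1, Unc5b and Epha2 were among those that rose, and Robo2, Sema4f, Plxna3, Sema4g and Plxnc1 among those that fell.

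Both groups were C57BL/6 mouse pancreas with the cell type given as ductal, and each held 2 libraries (WT 1 and WT 2, KO 1 and KO 2). The genotype of the first group is given as wild type only. The genotype of the second group combines floxed alleles of Lats1 and Lats2 on both chromosomes with Sox9-CreER, a tamoxifen-inducible Cre recombinase driven from Sox9, a gene of duct cells. The labels say nothing of Cre in the wild-type group, and age, sex, tamoxifen dosing and the way of isolating cells are not stated in the sources used here. They do not say that replicates were separate animals, so p-values measure only the spread between these libraries, which may be technical.

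Guidance molecules were first studied as cues that attract or repel growing axons, and many also act in epithelia and vessels. Semaphorins signal through plexins, with neuropilins as co-receptors for most secreted class 3 semaphorins. Ephrins are tethered to the cell surface and bind Eph receptor tyrosine kinases on neighbouring cells, so that both partners can signal. Slits bind Robo receptors, and netrins bind Dcc, neogenin and the Unc5 receptors. Lats1 and Lats2 are the kinases that restrain the transcriptional co-activators YAP and TAZ.

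Library totals ranged from 3566387 to 5925601 counts, and guidance genes took 0.174% to 0.183% of wild-type counts and 0.281% to 0.301% of knockout-labelled counts. A floor of 3 counts corresponded to between 0.486 and 0.824 CPM (counts per 1000000 counts, scaled by TMM, the trimmed mean of M-values). For the targeted genes, Lats1 had 50.8 and 65.6 CPM in WT 1 and 2 against 70.0 and 79.2 CPM in KO 1 and 2 and Lats2 had 114 and 102 CPM in WT 1 and 2 against 163 and 121 CPM in KO 1 and 2. Neither was lower in the libraries labelled knockout (edgeR adjusted p = 0.172 and 0.127), and counts over a whole gene model do not check a deletion of some exons. Duct markers such as Krt19 and Sox9 were present in all 4 libraries, and 8 of 11 were higher in the knockout-labelled ones, with a summed level of 1964 to 2487 CPM in wild type and 14420 to 14730 CPM in the others. Other cells were also present. Of 12 markers each, 12 macrophage and 10 fibroblast genes rose, with summed levels of 611 to 650.5 against 4771 to 6643 CPM and of 2800.0 to 3302 against 10990.0 to 16440.0 CPM. All 12 T and NK cell markers fell, from a summed 1477 to 1536 CPM to 53.6 to 94.8 CPM, and all 12 B cell markers from 2789 to 2834 CPM to 86.8 to 218 CPM. Acinar markers summed to 53900.0 and 96340.0 CPM in WT 1 and WT 2 and to 165 and 3746 CPM in KO 1 and KO 2, where Amy2a5 had 0 counts in both, and 2 of 11 tested passed the threshold, both lower. Of 10 smooth muscle and pericyte markers, 8 fell and 1 rose (4023 to 4881 against 1188 to 1852 CPM), and of 7 tested mesothelial markers 3 rose, Krt19, Msln and Wt1. Without Krt19, which is on the duct list too, 2 of 6 tested mesothelial markers rose, and the summed level of the list was 18.4 to 25.8 CPM in wild type and 286 to 331 CPM in the others. The part of these marker shifts in the changes of the guidance genes was not tested. In bulk libraries, fewer cells of a type and less RNA per cell cannot be told apart.

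Of 13990 genes tested across the whole genome, 42.2% passed an adjusted p of 0.05 in edgeR's quasi-likelihood test (Benjamini-Hochberg over all tested genes), against 61.8% of the 55 tested guidance genes. At a change of at least 2-fold, 17 guidance genes (30.9% of those tested) were higher and 11 (20%) lower, against 14.0% and 15.6% of all genes. The groups did not overlap for 26 guidance genes (47.3%) that were higher and 18 (32.7%) that were lower, against 37.4% and 36.8% of all genes. The median log2 change of the tested guidance genes was 0.39, against -0.01 for all tested genes. This median of the guidance genes was 0.26 without KO 2 and 0.57 without WT 2. Upper quartile scaling moved the median of all genes to -0.20 and the higher share of all calls from 52.1% to 39.4%, while 60.6% of the called guidance genes were higher, against 61.8% with TMM.

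**Figure D1:**
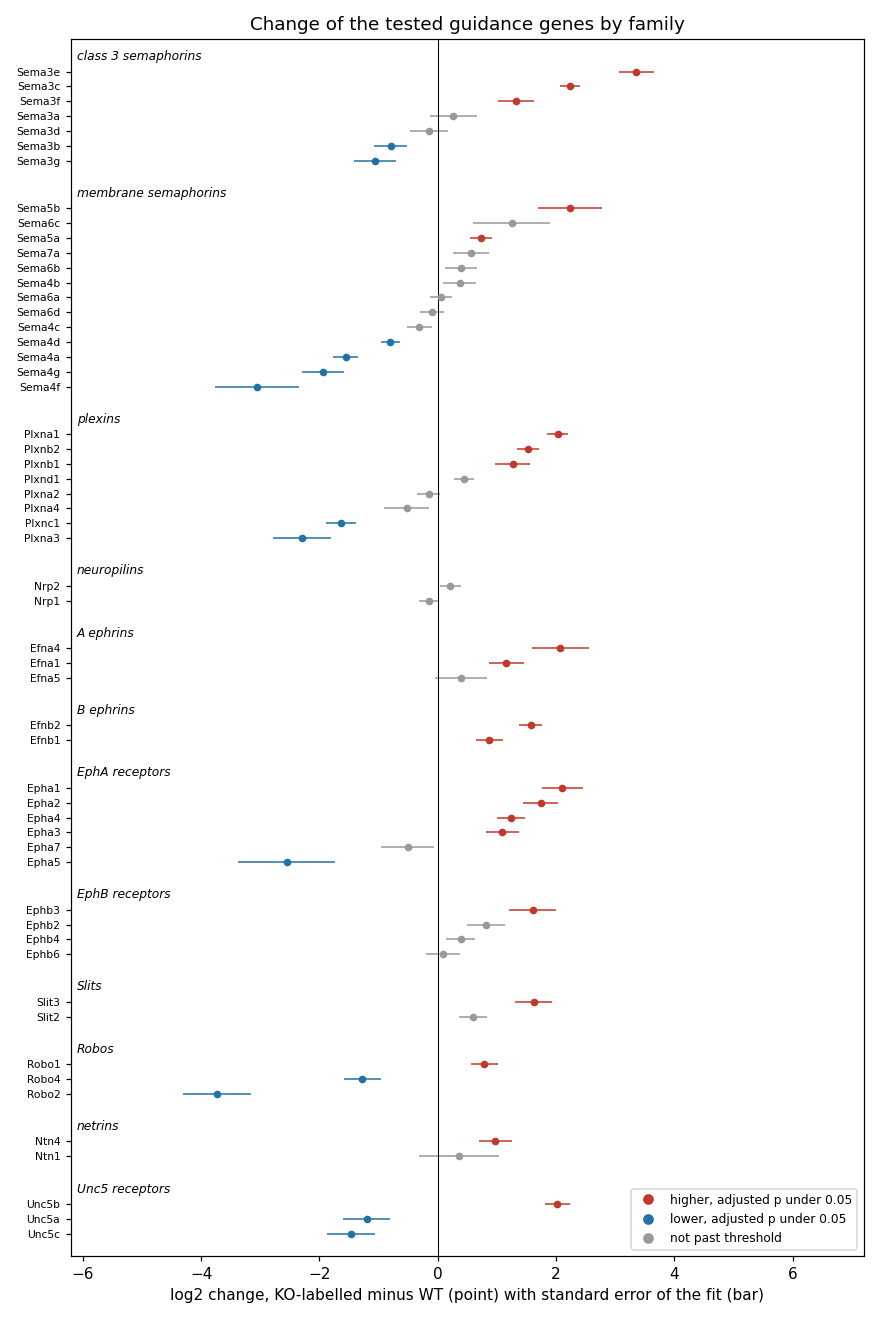
Log2 change of each of the 55 tested guidance genes, knockout-labelled minus wild-type, grouped by family, with points for the fitted change and bars for its standard error (4 libraries). Red points passed the threshold upward (21 genes), blue points downward (13 genes) and grey points did not pass, and both semaphorin groups and the plexin, EphA, Robo and Unc5 families hold red as well as blue points.

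Among the 7 class 3 semaphorins, secreted ligands of plexins and neuropilins, 3 rose and 2 fell. Sema3e (chromosome 5, 14025276 to 14256689, mm10), which binds plexin D1 without a neuropilin, was at 7.15 and 4.05 CPM in WT 1 and 2 against 61.2 and 52.6 CPM in KO 1 and 2. It rose 10.3-fold, from 5.60 ± 2.19 to 56.9 ± 6.06 CPM (SD, n = 2), with a log2 change of 3.36 ± 0.30 SE (edgeR adjusted p = 7.77e-05). Both knockout-labelled libraries stood far above both wild-type ones. Sema3c (chromosome 5, 17574281 to 17730268), which acts through neuropilins with plexins, was at 29.1 and 32.4 CPM in WT 1 and 2 against 145 and 144 CPM in KO 1 and 2. It rose 4.70-fold, with a log2 change of 2.23 ± 0.17 SE (edgeR adjusted p = 4.43e-05). The 2 libraries of each group lay close together for Sema3c. Sema3f (chromosome 9, 107681500 to 107710475), a ligand that prefers neuropilin 2, was at 36.3 and 38.9 CPM in WT 1 and 2 against 64.6 and 123 CPM in KO 1 and 2, and it rose 2.49-fold (edgeR adjusted p = 0.0126). KO 2 held 1.90 times the level of KO 1, and Sema3f did not pass without WT 1 or WT 2 (edgeR adjusted p = 0.0623 and 0.0544).

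The class 3 semaphorins that fell were Sema3g and Sema3b. Sema3g was at 17.0 and 25.8 CPM in WT 1 and 2 against 7.45 and 13.1 CPM in KO 1 and 2, with all knockout-labelled values below the wild-type ones, and fell 2.08-fold (edgeR adjusted p = 0.0416). Its call was lost without WT 2 or KO 1 (adjusted p in edgeR = 0.240 and 0.209) or with DESeq2 (adjusted p = 0.0536). Sema3g is known as a semaphorin of vessels, and 9 of 12 endothelial markers fell and 0 rose in these libraries, from a summed 2047 to 2188 CPM to 1004 to 1223 CPM. Their part in the result was not tested. Sema3b was at 20.3 and 20.0 CPM in WT 1 and 2 against 13.3 and 10.0 CPM in KO 1 and 2 and fell 1.73-fold (edgeR adjusted p = 0.0473). That call was lost when any 1 library was left out (edgeR adjusted p = 0.139, 0.131, 0.0719 and 0.241 without WT 1, WT 2, KO 1 and KO 2), with DESeq2 (adjusted p = 0.113), with library totals only, with no filter and with a filter of at least 1 CPM in 2 libraries (edgeR adjusted p = 0.0613, 0.0846 and 0.0580). Sema3a, the neuropilin 1 ligand, was at 12.9 and 6.07 CPM in WT 1 and 2 against 11.1 and 11.5 CPM in KO 1 and 2, and Sema3d at 22.8 and 17.8 CPM in WT 1 and 2 against 23.5 and 13.3 CPM in KO 1 and 2. Both had overlapping groups and did not pass (edgeR adjusted p = 0.622 and 0.751).

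The 13 membrane-bound semaphorins of classes 4 to 7 split, with 2 higher, 4 lower and 7 not past the threshold. All 4 that fell belong to class 4. Sema4d, also known as CD100, a lymphocyte semaphorin that binds plexin B1, was at 143 and 169 CPM in WT 1 and 2 against 92.4 and 86.9 CPM in KO 1 and 2 and fell 1.74-fold (edgeR adjusted p = 0.00541). Sema4a, a semaphorin of immune cells, was at 46.4 and 52.4 CPM in WT 1 and 2 against 18.1 and 15.5 CPM in KO 1 and 2 and fell 2.94-fold (edgeR adjusted p = 0.000727). The T, NK and B cell markers, all of which fell, moved with both genes, while all 12 macrophage markers rose. The part of these immune markers in the result was not tested. Sema4g was at 16.8 and 12.4 CPM in WT 1 and 2 against 3.82 and 3.72 CPM in KO 1 and 2 and fell 3.83-fold (edgeR adjusted p = 0.00292). Sema4f was at 6.60 and 12.1 CPM in WT 1 and 2 against 2.01 and 0.324 CPM in KO 1 and 2, with 2 counts in KO 2. It fell 8.34-fold (edgeR adjusted p = 0.00917). Without WT 2 it did not pass (edgeR adjusted p = 0.0519), and its log2 change of -3.06 was -4.75 without KO 1 and -2.17 without KO 2.

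Class 5 semaphorins, which carry thrombospondin repeats, were higher. Sema5a was at 33.3 and 36.0 CPM in WT 1 and 2 against 55.5 and 59.1 CPM in KO 1 and 2 and rose 1.66-fold (edgeR adjusted p = 0.0144, and 0.0678 without WT 1). Sema5b was much scarcer, at 1.37 and 0.899 CPM in WT 1 and 2 against 5.43 and 5.34 CPM in KO 1 and 2, and rose 4.72-fold (edgeR adjusted p = 0.0103). Its call was lost without WT 2, KO 1 or KO 2 (adjusted p in edgeR = 0.0618, 0.0830 and 0.0813). Both groups were apart for each of these 2 genes. Sema6a, Sema6b, Sema6c and Sema6d, transmembrane ligands of A-type plexins, had log2 differences of 0.06, 0.40, 1.25 and -0.10 and did not pass (edgeR adjusted p = 0.837, 0.261, 0.152 and 0.728). Sema4b and Sema4c, at 34.7 ± 6.28 and 44.8 ± 15.2 CPM and at 43.9 ± 1.82 and 35.4 ± 5.61 CPM (SD, n = 2), did not pass either (edgeR adjusted p = 0.308 and 0.264). The groups did not overlap for Sema4c, which was lower, or for Sema6b and Sema6c, which were higher. Sema7a, a lipid-anchored ligand of plexin C1 and integrins, was at 36.5 and 42.3 CPM in WT 1 and 2 against 39.8 and 76.6 CPM in KO 1 and 2. KO 1 lay between the wild-type libraries and KO 2 above them, and Sema7a did not pass (edgeR adjusted p = 0.181). Without KO 1 it passed, at a log2 change of 0.96 (edgeR adjusted p = 0.0157), as it did with no filter and with the replicate number as a block (edgeR adjusted p = 0.0164 and 0.0468).

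**Figure D2:**
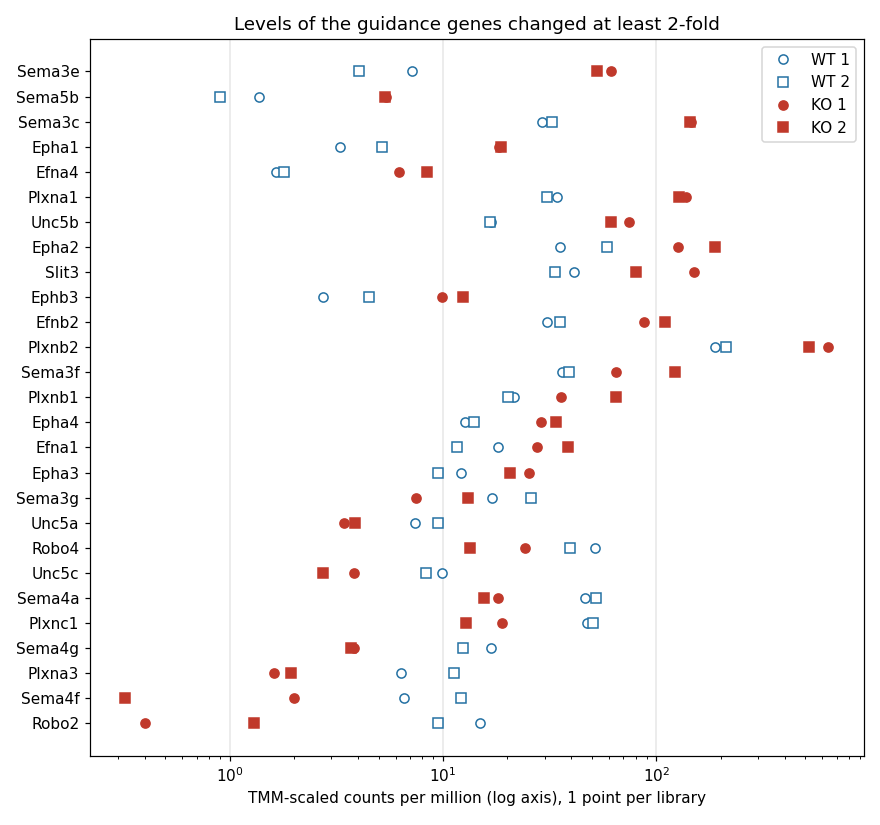
TMM-scaled CPM in each library, on a log axis, for the 27 guidance genes that passed the threshold with at least a 2-fold change and a higher-group mean of at least 5 CPM. Open blue symbols are the wild-type libraries and filled red symbols the knockout-labelled ones, circles for replicate 1 and squares for replicate 2. Genes run from Sema3e at the top to Robo2 at the bottom. The groups do not overlap for any of the 27 genes, which were selected by their change in these same libraries. Of all tested genes, the groups did not overlap for 37.4% that were higher and 36.8% that were lower.

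Of the 9 plexins, the semaphorin receptors, 8 were tested, and 3 rose and 2 fell. Plxnb2 (chromosome 15, 89155549 to 89171120), a receptor of class 4 semaphorins widely used by epithelia, was at 189 and 213 CPM in WT 1 and 2 against 640.2 and 517 CPM in KO 1 and 2. It rose 2.88-fold, from 201 ± 17.4 to 579 ± 87.0 CPM (SD, n = 2; log2 change 1.53 ± 0.18 SE, edgeR adjusted p = 0.000303). Per kb of annotated exon it was the highest guidance gene in both groups, at a mean of 26.0 CPM per kb in wild type and 75.0 CPM per kb in the knockout-labelled libraries. In wild type Sema4d came next at 20.3 CPM per kb, while in the knockout-labelled libraries Epha2 came next at 33.7 CPM per kb. These levels per length take the reads to lie in exons, which the sources used here do not state, and the annotated models of Plxnb2 and Sema4d differ in coordinates from those counted, so their places in the order are uncertain.

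Plxna1, a partner of neuropilins, was at 34.4 and 30.8 CPM in WT 1 and 2 against 138 and 128 CPM in KO 1 and 2. It rose 4.08-fold, with a log2 change of 2.03 ± 0.17 SE (edgeR adjusted p = 6.66e-05), and both groups were tight. Plxnb1, the receptor of Sema4d, was at 21.4 and 20.2 CPM in WT 1 and 2 against 35.8 and 64.4 CPM in KO 1 and 2. It rose 2.41-fold (edgeR adjusted p = 0.00928), and KO 2 held 1.80 times the level of KO 1. Without KO 2 its log2 change was 0.82 (edgeR adjusted p = 0.0542). Its ligand Sema4d fell in the same comparison.

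Plxnc1, the receptor of Sema7a, was at 47.5 and 50.6 CPM in WT 1 and 2 against 18.9 and 12.8 CPM in KO 1 and 2 and fell 3.11-fold (log2 change -1.64 ± 0.25 SE, edgeR adjusted p = 0.00112). Plxna3, another partner of neuropilins, was at 6.32 and 11.2 CPM in WT 1 and 2 against 1.61 and 1.94 CPM in KO 1 and 2 and fell 4.89-fold (edgeR adjusted p = 0.00603, and 0.0584 without WT 2). The wild-type libraries were above both knockout-labelled ones for these 2 plexins. Plxnd1, the Sema3e receptor found in endothelium, was at 97.0 and 123 CPM in WT 1 and 2 against 151 and 149.6 CPM in KO 1 and 2. Its groups did not overlap, but it missed the threshold (log2 difference 0.45 ± 0.17 SE, edgeR adjusted p = 0.0689). It passed with library totals only, with no filter and with the replicate number as a block (edgeR adjusted p = 0.0440, 0.0190 and 0.0348). Plxna2 and Plxna4, receptors of class 6 semaphorins, were at 42.1 ± 3.86 and 37.8 ± 1.69 CPM and at 29.1 ± 0.768 and 20.4 ± 11.6 CPM (SD, n = 2) and did not pass (edgeR adjusted p = 0.570 and 0.312). The groups of Plxna2 did not overlap, with the knockout-labelled libraries lower. For Plxna4, KO 1 lay just below wild type at 28.6 CPM and KO 2 stood at 12.1 CPM, so that it passed without KO 1 (log2 change -1.26, edgeR adjusted p = 0.0196).

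The neuropilins did not pass, though for Nrp1 both knockout-labelled libraries lay below both wild-type ones. Nrp1 was at 124 and 112 CPM in WT 1 and 2 against 103 and 109.7 CPM in KO 1 and 2 (log2 difference -0.16 ± 0.16 SE, edgeR adjusted p = 0.468), and Nrp2 was at 127 and 102 CPM in WT 1 and 2 against 143 and 123 CPM in KO 1 and 2 (log2 difference 0.21 ± 0.18 SE, edgeR adjusted p = 0.370). All 4 libraries lay close together for both co-receptors. Their ligands and partners went both ways: Sema3c, Sema3f and Plxna1 rose, while Sema3b, Sema3g and Plxna3 fell. Sema3a and Sema3d did not pass.

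The ephrin ligands that passed the threshold all rose. Of 5 A ephrins, which are held by a lipid anchor, 3 were tested and 2 rose, and of 3 B ephrins, which cross the membrane, 2 were tested and both rose. Efnb2 (chromosome 8, 8617434 to 8661242), the ephrin of arteries and of many epithelia, was at 30.8 and 35.5 CPM in WT 1 and 2 against 87.7 and 109.6 CPM in KO 1 and 2. It rose 2.97-fold, with a log2 change of 1.57 ± 0.20 SE (edgeR adjusted p = 0.000432). Efnb1 was at 22.0 and 30.1 CPM in WT 1 and 2 against 46.5 and 49.0 CPM in KO 1 and 2 and rose 1.83-fold (edgeR adjusted p = 0.0146, and 0.0807 without WT 1). Efna1, the usual ligand of Epha2, was at 18.1 and 11.7 CPM in WT 1 and 2 against 27.6 and 38.7 CPM in KO 1 and 2 and rose 2.24-fold (edgeR adjusted p = 0.0132). Its call was lost without WT 2 or KO 2 (adjusted p in edgeR = 0.0734 and 0.0954). Efna4 was at 1.65 and 1.80 CPM in WT 1 and 2 against 6.24 and 8.42 CPM in KO 1 and 2 and rose 4.21-fold (edgeR adjusted p = 0.00851, and 0.0884 without KO 2). For each of these 4 ephrins both knockout-labelled libraries were above both wild-type ones. Efna5 was at 4.40 and 9.21 CPM in WT 1 and 2 against 11.1 and 7.12 CPM in KO 1 and 2, with overlapping groups, and did not pass (edgeR adjusted p = 0.506).

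Among 9 EphA receptors, 6 were tested, of which 4 rose and 1 fell. Epha2 (chromosome 4, 141301240 to 141329384), the main EphA receptor of epithelia, was at 35.5 and 58.7 CPM in WT 1 and 2 against 127 and 188 CPM in KO 1 and 2. It rose 3.34-fold, from 47.1 ± 16.4 to 158 ± 43.6 CPM (SD, n = 2; log2 change 1.74 ± 0.30 SE, edgeR adjusted p = 0.00373). Epha1, also an epithelial receptor, was at 3.30 and 5.17 CPM in WT 1 and 2 against 18.3 and 18.8 CPM in KO 1 and 2 and rose 4.31-fold (edgeR adjusted p = 0.00164). Its exons share 236 bases with exons of Zyx on the opposite strand, and Zyx itself rose 2.82-fold, from 164 ± 10.2 to 462 ± 74.9 CPM. The counting's use of strand is not stated, so the Epha1 value is uncertain. Epha4, which binds both ephrin classes, was at 12.6 and 13.9 CPM in WT 1 and 2 against 28.8 and 33.8 CPM in KO 1 and 2 and rose 2.35-fold (edgeR adjusted p = 0.00386). Epha3 was at 12.1 and 9.44 CPM in WT 1 and 2 against 25.4 and 20.6 CPM in KO 1 and 2 and rose 2.13-fold (edgeR adjusted p = 0.0139). Its call was lost without WT 2 or KO 1 (adjusted p in edgeR = 0.0811 and 0.100). The groups of these 4 receptors did not overlap. Duct markers, 8 of 11 of which rose, moved with Epha2 and Epha1 as with the other genes that rose. Fibroblast markers, 10 of 12 of which rose, moved with Epha3 as with the other genes that rose. The part of both marker lists in the result was not tested.

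Epha5, a receptor studied mostly in the nervous system and in islets, was at 5.22 and 2.70 CPM in WT 1 and 2 against 1.21 and 0.162 CPM in KO 1 and 2 and fell 5.88-fold (edgeR adjusted p = 0.0332). The call was lost without WT 1 or KO 2 (adjusted p in edgeR = 0.197 and 0.228) and with DESeq2 (adjusted p = 0.0669), and its log2 change of -2.56 was -4.39 without KO 1 and -1.65 without KO 2. Epha7 was at 6.05 and 4.50 CPM in WT 1 and 2 against 3.62 and 3.72 CPM in KO 1 and 2. Its groups did not overlap, but it did not pass (edgeR adjusted p = 0.382). Of 5 EphB receptors, 4 were tested and 1 rose. Ephb3 was at 2.75 and 4.50 CPM in WT 1 and 2 against 9.86 and 12.5 CPM in KO 1 and 2 and rose 3.04-fold (edgeR adjusted p = 0.0122). Its call was lost without WT 1 or KO 2 (adjusted p in edgeR = 0.0545 and 0.0930). Ephb2 was at 10.7 and 20.5 CPM in WT 1 and 2 against 30.8 and 24.9 CPM in KO 1 and 2, without overlap of the groups, and missed the threshold (log2 difference 0.82 ± 0.32 SE, edgeR adjusted p = 0.0688). It passed without WT 2 (log2 change 1.38, edgeR adjusted p = 0.0149), and with library totals only, no filter or the replicate block (edgeR adjusted p = 0.0402, 0.00623 and 0.0135). Ephb4, the venous receptor of Efnb2, was at 47.5 and 34.6 CPM in WT 1 and 2 against 44.7 and 62.5 CPM in KO 1 and 2, and Ephb6, which lacks kinase activity, was at 15.7 and 11.7 CPM in WT 1 and 2 against 14.1 and 14.9 CPM in KO 1 and 2. Both had overlapping groups and did not pass (edgeR adjusted p = 0.231 and 0.830).

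The 250 bases before each annotated start were read for 58 of the 67 guidance genes from RefSeq promoter entries (GRCm38.p6, 74 windows), and CATTCC, the core letters bound by TEAD factors, the DNA-binding partners of YAP, was searched on both strands. It was found in 7 of the 58 (12.1%), against 14.4% of all 27025 genes with an entry. The 7 were 5 of the 19 genes with an entry that rose, Epha1, Epha2, Epha3, Efnb2 and Plxnb1, and 1 of the 12 that fell, Sema4a, and Plxnd1, which did not pass. The AP-1 letters TGANTCA, also searched on both strands, were found in 3 of the 58 (5.17%), against 7.82% of all genes. They were in 0 of the 19 and in 1 of the 12, Sema4d. A match describes the letters and not binding, the lack of one says only that the letters are not in the window, and no test was made. The windows of Epha2, Efnb2 and Plxnb1 are shown because these genes rose and hold a match, and that of Sema3e because it had the largest rise and holds none. Capitals mark CATTCC or its reverse complement GGAATG, and each window is written 5′ to 3′ on the strand of its gene.
Epha2 (chr4:141300971-141301220, plus strand): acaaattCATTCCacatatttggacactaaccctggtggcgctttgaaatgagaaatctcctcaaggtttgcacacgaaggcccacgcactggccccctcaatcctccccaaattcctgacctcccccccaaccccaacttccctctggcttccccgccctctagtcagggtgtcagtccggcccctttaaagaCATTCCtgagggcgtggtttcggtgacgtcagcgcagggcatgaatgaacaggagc
Efnb2 (chr8:8661243-8661492, minus strand): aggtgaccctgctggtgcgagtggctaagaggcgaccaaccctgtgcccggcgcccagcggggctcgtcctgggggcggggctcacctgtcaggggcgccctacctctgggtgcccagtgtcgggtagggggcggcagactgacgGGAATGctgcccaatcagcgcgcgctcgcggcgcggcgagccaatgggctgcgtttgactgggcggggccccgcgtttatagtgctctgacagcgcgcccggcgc
Plxnb1 (chr9:109095186-109095435, plus strand): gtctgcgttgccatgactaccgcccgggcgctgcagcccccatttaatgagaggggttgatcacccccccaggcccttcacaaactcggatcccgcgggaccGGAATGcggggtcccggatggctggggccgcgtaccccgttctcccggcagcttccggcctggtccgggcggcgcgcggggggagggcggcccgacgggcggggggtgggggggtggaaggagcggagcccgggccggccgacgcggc
Sema3e (chr5:14025026-14025275, plus strand): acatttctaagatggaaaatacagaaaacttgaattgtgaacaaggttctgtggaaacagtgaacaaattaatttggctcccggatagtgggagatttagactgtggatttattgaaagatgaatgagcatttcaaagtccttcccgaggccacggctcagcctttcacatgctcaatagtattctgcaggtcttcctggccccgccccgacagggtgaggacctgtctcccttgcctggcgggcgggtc
In Epha2 the match nearest to the start ended 50 bases before it and the other 237 bases before it. The single match ended 99 bases before the start in Efnb2 and 142 bases before it in Plxnb1.

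Of 3 Slits, the ligands of Robo receptors, 2 were tested and 1 rose, and of 4 Robos 3 were tested, with 1 higher and 2 lower. Slit3 (chromosome 11, 35121224 to 35708507) was at 41.2 and 33.5 CPM in WT 1 and 2 against 150.3 and 80.1 CPM in KO 1 and 2 and rose 3.08-fold (log2 change 1.62 ± 0.32 SE, edgeR adjusted p = 0.00675). Both knockout-labelled libraries were above wild type, KO 1 the higher of them. Slit2 was at 26.1 and 24.9 CPM in WT 1 and 2 against 45.3 and 32.1 CPM in KO 1 and 2, with groups that did not overlap, and missed the threshold (log2 difference 0.60 ± 0.24 SE, edgeR adjusted p = 0.0734). It passed without KO 2 (log2 change 0.86, edgeR adjusted p = 0.0314), with no filter and with the replicate block (edgeR adjusted p = 0.0281 and 0.0383).

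Robo2 (chromosome 16, 73892306 to 74411825), a Slit receptor, had the largest fall of all tested guidance genes. It was at 14.8 and 9.44 CPM in WT 1 and 2 against 0.402 and 1.29 CPM in KO 1 and 2, which is 54 and 42 counts against 2 and 8. It fell 13.3-fold (log2 change -3.73 ± 0.57 SE, edgeR adjusted p = 0.00110, and -4.78 on the log2 scale without KO 2). Robo4, the Robo of endothelial cells, was at 51.4 and 39.6 CPM in WT 1 and 2 against 24.4 and 13.4 CPM in KO 1 and 2 and fell 2.42-fold (edgeR adjusted p = 0.0107), with KO 2 the lowest library. Without KO 2 its log2 change was -0.87 (edgeR adjusted p = 0.0517). The endothelial markers, with 9 of 12 lower and a summed 2047 to 2188 against 1004 to 1223 CPM, moved with Robo4, and their part in the result was not tested. Of other genes described above with vessels, Sema3g fell, Efnb2 rose, and Plxnd1 and Ephb4 did not pass. Robo1, the more widely expressed Slit receptor, was at 23.1 and 18.4 CPM in WT 1 and 2 against 37.4 and 34.2 CPM in KO 1 and 2 and rose 1.73-fold (edgeR adjusted p = 0.0216). That call was lost without WT 2 or KO 1 and with upper quartile scaling (edgeR adjusted p = 0.129, 0.0973 and 0.0626), and with DESeq2 (adjusted p = 0.0554).

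The Unc5 receptors, which bind netrins and can trigger death of cells that lack the ligand, also split. Unc5b (chromosome 10, 60762593 to 60831581) was at 16.8 and 16.6 CPM in WT 1 and 2 against 74.7 and 61.5 CPM in KO 1 and 2. It rose 4.07-fold, from 16.7 ± 0.0933 to 68.1 ± 9.30 CPM (SD, n = 2; log2 change 2.03 ± 0.21 SE, edgeR adjusted p = 0.000171). Unc5c was at 9.89 and 8.32 CPM in WT 1 and 2 against 3.82 and 2.75 CPM in KO 1 and 2 and fell 2.77-fold (edgeR adjusted p = 0.0189), a call lost without WT 1, KO 1 or KO 2 (adjusted p in edgeR = 0.0780, 0.0590 and 0.132). Unc5a was at 7.42 and 9.44 CPM in WT 1 and 2 against 3.42 and 3.88 CPM in KO 1 and 2 and fell 2.30-fold (edgeR adjusted p = 0.0376). Its call was lost without WT 1, WT 2, KO 1 or KO 2 and with no filter (edgeR adjusted p = 0.0580, 0.183, 0.170, 0.135 and 0.0804), and with DESeq2 (adjusted p = 0.108). The groups did not overlap for any of these 3 receptors. Exons of Unc5a share 34 bases with exons of Hk3 on the opposite strand, and Hk3 was at 6.39 ± 0.493 and 9.15 ± 3.56 CPM (SD, n = 2).

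Robo2, Unc5a, Unc5c, Epha5, Sema4f and Plxna3, which fell, have known roles in neurons. The same families, first studied in axons, also hold genes that rose, among them Robo1, Unc5b, Epha4 and Plxna1. Of 10 Schwann cell and neural markers 7 fell and 0 rose, from a summed 272 to 345 CPM to 129 to 133 CPM, and of 10 islet markers 4 fell and 1 rose, from 1158 to 2197 CPM to 182 to 288 CPM. No marker of these lists was at 0 in both libraries of a group, and their part in the falls was not tested.

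Netrin 1, the best known ligand of Dcc and the Unc5 receptors, differed between the knockout-labelled libraries more than between the groups. Ntn1 was at 26.1 and 24.5 CPM in WT 1 and 2 against 13.9 and 50.5 CPM in KO 1 and 2, so that KO 1 was the lowest of the 4 libraries and KO 2 the highest, 3.64 times KO 1. It did not pass (difference on the log2 scale 0.36 ± 0.67 SE, edgeR adjusted p = 0.712). Without KO 1 it passed (log2 change 1.00, edgeR adjusted p = 0.0176). Ntn4, a laminin-like netrin of basement membranes, was at 9.07 and 10.8 CPM in WT 1 and 2 against 19.3 and 19.9 CPM in KO 1 and 2 and rose 1.97-fold (edgeR adjusted p = 0.0210). Leaving out WT 1, WT 2, KO 1 or KO 2 ended the call (edgeR adjusted p = 0.0915, 0.0502, 0.0815 and 0.0871), as did DESeq2 (adjusted p = 0.0579).

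Other guidance genes also differed between replicates. Of the 55 tested guidance genes, 14 (25.4%) were more than 1.5-fold apart between KO 1 and KO 2 and 15 (27.3%) between WT 1 and WT 2, against 23.6% and 21.8% of all tested genes. Sema3f, Plxnb1 and Sema7a were higher in KO 2, and Slit3, Robo4, Sema3d and Plxna4 were higher in KO 1.

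**Figure D3:**
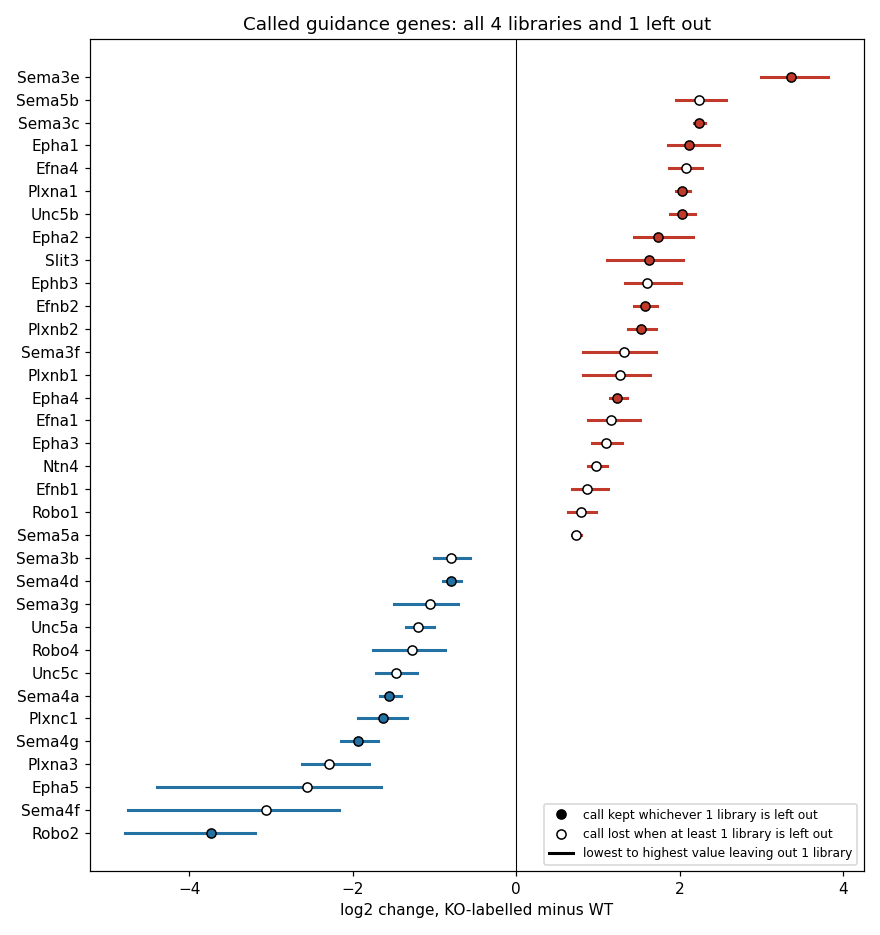
Log2 change of the 34 called guidance genes with all 4 libraries (circles) and the lowest to highest value when any 1 library is left out (bars), red for genes that rose and blue for genes that fell. Filled circles mark the 15 genes that passed the threshold whichever library was left out, and open circles the others, and all bars stay on 1 side of zero.

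The 15 genes that passed whichever library was left out were Sema3c, Sema3e, Sema4a, Sema4d, Sema4g, Plxna1, Plxnb2, Plxnc1, Efnb2, Epha1, Epha2, Epha4, Slit3, Robo2 and Unc5b. These also passed under all scaling, filter, block and DESeq2 alternatives tried.

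The remaining 12 guidance genes had too few counts to pass the filter of the main fit. Efna2, Efna3, Epha6, Epha8, Epha10, Efnb3, Ntn5, Robo3 and Unc5d had at most 5 counts in every library. Robo3 had 0 counts in wild type and 2 and 4 counts in KO 1 and KO 2. Plxnb3 had 15, 4, 4 and 2 counts in WT 1, WT 2, KO 1 and KO 2. Slit1 had 2, 11, 9 and 12 counts and Ephb1 7, 8, 7 and 8 counts in the same order. With no filter, all 67 guidance genes entered the test, these 12 with few counts.

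Partners of the guidance systems outside the symbol rule also went both ways. Of 60 such genes 58 were tested, and 22 rose and 11 fell (37.9% and 19.0% of those tested, against 22.0% and 20.2% of all genes). Among 11 tested receptors, ligands and co-receptors of the netrin and Slit systems, 4 rose and 1 fell. Gpc1, a glypican that binds Slits, rose 4.37-fold from 19.0 ± 1.47 to 83.1 ± 6.02 CPM, and neogenin (Neo1), a receptor of netrins, rose 3.94-fold from 29.3 ± 1.44 to 116 ± 8.12 CPM (edgeR adjusted p = 9.19e-05 and 8.08e-05). Flrt2 and Flrt3, ligands of Unc5 receptors, rose 3.70-fold and 3.63-fold (edgeR adjusted p = 0.000605 and 0.000882). Dscam, a netrin receptor of neurons, fell 11.2-fold from 4.28 ± 0.617 to 0.363 ± 0.0557 CPM (edgeR adjusted p = 0.00333, and 0.0501 without KO 2). It lies under the level set for naming and was named after its value was seen, as was Flrt3. Dcc had 0 counts in all 4 libraries.

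Among 20 genes listed as effectors of plexins and neuropilins or as their relatives, 7 rose and 4 fell. Mical2, which disassembles actin, rose 5.20-fold from 39.1 ± 3.56 to 203 ± 5.44 CPM (edgeR adjusted p = 3.05e-05). Farp1, a FERM-domain protein that binds A-type plexins, rose 4.11-fold, and Gipc1, which binds the tail of neuropilin 1, rose 2.25-fold (edgeR adjusted p = 8.08e-05 and 0.00322). Rnd1, a GTPase that binds plexins, fell 3.59-fold from 94.8 ± 14.7 to 26.4 ± 0.0156 CPM (edgeR adjusted p = 0.000176). The collapsin response mediators Dpysl5 and Crmp1 fell 5.96-fold and 4.16-fold (edgeR adjusted p = 0.00522 and 0.00575), and the log2 change of Dpysl5 was -2.57, or -3.31 without KO 1.

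Among 17 effectors of Eph receptors and ephrins, 8 rose and 4 fell. Pdzrn3, a PDZ-domain ubiquitin ligase, rose 2.76-fold, syntenin (Sdcbp), which binds B ephrins, 2.38-fold and Adam10, a protease that cuts ephrins, 2.10-fold (edgeR adjusted p = 0.000475, 0.000422 and 0.00272). The kinase Fyn fell 2.61-fold and Rgs3, a regulator of G protein signalling that binds B ephrins, 1.73-fold (edgeR adjusted p = 0.000435 and 0.00800). Vav2, a guanine nucleotide exchange factor of Eph signalling, fell 1.52-fold (edgeR adjusted p = 0.0333), a call lost without WT 1, WT 2, KO 1 or KO 2 and with library totals only or no filter (edgeR adjusted p = 0.0668, 0.172, 0.0776, 0.125, 0.0506 and 0.0701), and with DESeq2 (adjusted p = 0.0669).

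Among 10 effectors of Robo receptors, 3 rose and 2 fell. The actin regulator Enah rose 2.67-fold and its paralog Evl fell 1.90-fold, from 54.3 ± 15.4 to 146 ± 16.9 CPM and from 148 ± 6.08 to 78.0 ± 0.984 CPM (edgeR adjusted p = 0.00128 and 0.00199). Srgap1, which binds Robo1, rose 2.54-fold (edgeR adjusted p = 0.0117, and 0.102 without KO 2). The exchange factor Sos1 rose 1.62-fold (edgeR adjusted p = 0.0145), which was lost without WT 1 or KO 1 and with upper quartile scaling (edgeR adjusted p = 0.0815, 0.0625 and 0.0534). Arhgap26 fell 3.59-fold (edgeR adjusted p = 0.000174). The T and NK cell markers, all 12 lower, moved with Fyn and Evl, which lymphocytes express, and their part in the result was not tested.

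Several guidance genes are neighbours in the genome, and neighbours did not always change alike. Robo1 and Robo2 lie 846.2 kb apart on chromosome 16 and changed by 0.79 and -3.73 on the log2 scale. Sema3b and Sema3f lie 72.3 kb apart on chromosome 9 and changed by -0.79 and 1.32. Efna1 and Efna4, 52.2 kb apart on chromosome 3 with Efna3 between them, both rose, by 1.16 and 2.07, while Efna3 had at most 4 counts in a library. Robo4 and Robo3, 553 bases apart on chromosome 9 and read in opposite directions, differed in level: Robo4 changed by -1.27 and Robo3 had too few counts to test. Sema3e lies 422.7 kb from Sema3a on chromosome 5, and Sema3a did not pass.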

How the data were processed

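Pancreatic duct RNA of 2 wild-type and 2 knockout-labelled libraries was sequenced from a strand-preserving SMARTer kit, per the labels' protocols. The deposited files hold raw counts per gene model, 1 file per library, on mm10, and TopHat and edgeR are named per the submitters' processing notes, without versions. No source used here gives the counting program, the gene annotation, how strand entered or what became of reads matching more than 1 gene, so paralogs and overlapping genes may share reads. Start coordinates in the files count from 0 and are given from 1. All 67 guidance genes have a GENCODE M21 gene of the same name, 60 with identical coordinates, which gave exon lengths.

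The deposited counts went through filterByExpr and TMM scaling. The quasi-likelihood test of edgeR 4.0.16 (robust glmQLFit) under R 4.3.3 then compared genotypes, without further terms, on 2 residual degrees of freedom. P-values were adjusted by Benjamini-Hochberg over all 13990 genes, with a threshold of 0.05. Standard errors were derived from the fitted coefficient and its F statistic, and fold changes are those of the fit. Replicate files differed beyond sampling noise: chi-square divided by its degrees of freedom was 14.2 between the wild-type files and 13.5 between the knockout-labelled ones. The floor of 3 counts covers counting error only.

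Guidance genes that passed with at least a 2-fold change and a higher-group mean of at least 5 CPM are given with all 4 values, and other members by their values or counts. Of each partner list, up to 3 rises and 3 falls above 5 CPM are named. The members, gene lists and tests were chosen with earlier results of these data known. Alternatives were DESeq2 1.42.0, other scalings and filters, a replicate block and leaving out each library.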

Additional observations from a re-analysis of the deposited data

How the results depend on the processing

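No tested guidance gene reversed a call under any alternative. Median-of-ratios scaling changed 0 of 55 calls, upper quartile scaling and a filter of at least 1 CPM in at least 2 libraries, which was planned as stricter but kept 15733 genes, 1 each, library totals only 3 and no filter 6, and DESeq2 lost 6. Guidance genes that rose numbered 19 to 25 and those that fell 9 to 13 over these settings, and leaving out 1 library gave 16 to 19 and 8 to 10. All tested genes that fell numbered 1867 to 2276 when 1 library was left out, against 2832. The median log2 change of the guidance genes, 0.39 with all libraries, was 0.20 with upper quartile scaling and 0.26 to 0.57 when 1 library was left out. Partner genes numbered 17 to 24 higher and 8 to 12 lower over all alternatives. The labels do not say that a replicate number marks a shared animal or batch, and deviations of same-numbered libraries correlated at 0.0379 across 13990 genes. With the replicate block, 25 guidance genes rose and 13 fell, and it added 4 calls and lost 0. Where 1 library is left out, the lone library of its group is assumed to vary like the other group. The cause of these shifts was not tested. With 2 libraries a group and at most 5925601 counts in each, calls of genes under about 10 CPM rest on few counts.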
